A study of Drosophila melanogaster with 2 samples.

Results

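The binding sites described here are Crol peaks that lay inside genes, away from any start site. Each had a run of guanines near its point of highest signal. A peak was taken when its summit, the point of highest signal, lay on an autosomal arm of *Drosophila melanogaster*, more than 500 bp from every annotated transcription start site (TSS), inside a gene but in no exon. A stretch of at least 6 consecutive guanines on either strand, called a G run below, also had to lie wholly within 50 bp of the summit. Of the 9211 peaks in the authors' conservative list, 3401 were autosomal intron peaks by the first conditions, and 1119 of these had a G run. The 1119 are 12.1% of the list, and the 2282 autosomal intron peaks without a G run serve for comparison. The chromatin came from whole embryos aged 0 to 24 h of a transgenic strain, crol-GFP, that carries a Crol-eGFP fusion. All libraries are of that strain and stage, with 2 biological replicates in 1 group and no second condition. The pull-down used an antibody against GFP in one label field, and crol is given as the antibody in another. The labels also point to a possible control, not analysed here. Embryos of all ages and tissues were mixed, so a peak cannot be assigned to a cell type.

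Crol is the product of crooked legs, an ecdysone-regulated gene of the fly, and is a protein with many C2H2 zinc fingers. Zinc fingers of this kind each contact a few adjacent bases of DNA, and arrays of them read longer words, often rich in guanine. Introns of developmental genes in flies often hold enhancers, which act on a promoter at a distance. Guanine-rich DNA can also fold into G-quadruplex structures, and long runs of 1 base are a common form of simple repeat.

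The sequences of some of the strongest such peaks show how the run sits beside the summit. Each stretch is the plus strand of dm6 from 50 bp before to 50 bp after the summit, read from the RefSeq copy of the assembly, with the G run in capitals. A run of C in capitals is a G run on the minus strand. The first 8 are among the highest signals, nkd has the longest run, and crol and CG5953 are the strongest autosomal intron peaks with no G run, shown for contrast without capitals.
sty, chr3L:3418476-3418576: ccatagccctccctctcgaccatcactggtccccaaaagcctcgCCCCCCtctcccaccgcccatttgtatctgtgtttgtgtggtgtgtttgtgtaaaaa
aru, chr2L:867071-867171: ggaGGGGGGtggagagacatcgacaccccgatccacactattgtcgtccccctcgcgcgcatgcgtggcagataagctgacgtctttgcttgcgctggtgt
bun, chr2L:12529629-12529729: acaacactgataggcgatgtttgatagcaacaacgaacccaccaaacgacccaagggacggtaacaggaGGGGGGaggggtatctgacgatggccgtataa
CG9171, chr2L:5799585-5799685: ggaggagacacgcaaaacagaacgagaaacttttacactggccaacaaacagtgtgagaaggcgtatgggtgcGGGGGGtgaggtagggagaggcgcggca
CG43367, chr3L:4221469-4221569: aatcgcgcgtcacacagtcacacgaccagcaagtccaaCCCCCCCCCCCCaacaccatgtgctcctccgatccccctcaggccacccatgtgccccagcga
Glut4EF, chr3R:9932606-9932706: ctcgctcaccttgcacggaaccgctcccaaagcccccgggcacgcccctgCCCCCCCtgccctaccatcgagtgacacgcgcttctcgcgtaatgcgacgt
Dad, chr3R:17056796-17056896: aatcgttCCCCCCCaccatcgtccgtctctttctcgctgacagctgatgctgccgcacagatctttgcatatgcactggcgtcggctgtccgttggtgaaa
Pde11, chr2L:18561912-18562012: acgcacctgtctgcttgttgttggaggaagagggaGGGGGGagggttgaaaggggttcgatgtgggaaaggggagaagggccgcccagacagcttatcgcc
nkd, chr3L:19026817-19026917: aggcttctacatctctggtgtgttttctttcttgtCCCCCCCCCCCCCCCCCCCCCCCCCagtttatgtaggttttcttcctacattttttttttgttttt
crol, chr2L:11806898-11806998: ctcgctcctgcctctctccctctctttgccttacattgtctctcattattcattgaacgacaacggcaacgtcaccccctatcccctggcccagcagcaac
CG5953, chr2L:16526128-16526228: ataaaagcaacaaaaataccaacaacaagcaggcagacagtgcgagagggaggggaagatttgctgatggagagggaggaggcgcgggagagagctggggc

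The peak in an intron of sty, an inhibitor of receptor tyrosine kinase signalling, had its 6-base run next to the summit. In aru and Dad the run lay near the edge of the window. CG43367 had a run of 12 bases. The run in nkd, of 25 bases, was the longest in the autosomal introns counted here. The 2 contrast peaks held shorter runs, of 5 bases in crol and 4 in CG5953, so a strong intron peak did not need a run of 6.

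G runs were far more frequent at intron summits than in the introns themselves. A run lay in reach of 32.9% of the autosomal intron summits (1119 of 3401, exact Clopper-Pearson 95% interval 31.3 to 34.5), against 2.21% of all 42624992 autosomal intron positions more than 500 bp from a TSS. Windows of the same length centred 200 to 1000 bp from the same summits held a run in 1.73 to 6.09% of cases, with a median of 3.20%. Intervals of shares here cover the counting of peaks only, since peaks of 1 list are not replicates. The rule required a run of the 1119 peaks and not of the 3401, but it was set with earlier results of these data known. With 1 group, the share describes where peaks lay and not a response.

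**Figure D1:**
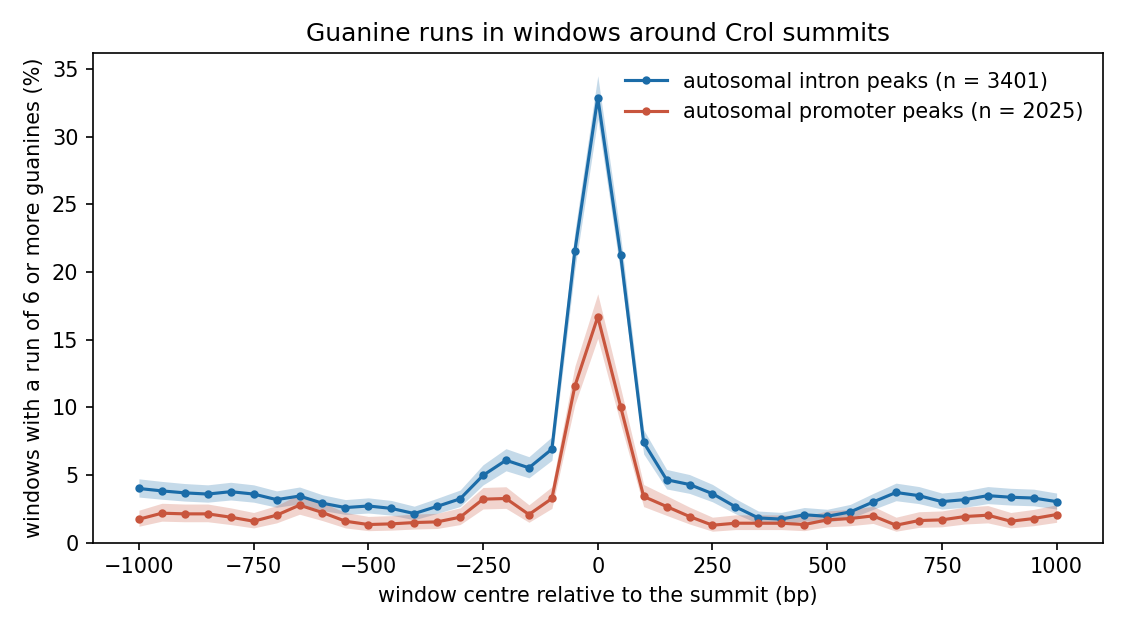
Percentage of windows, each reaching 50 bp to either side of its centre, that hold a G run of at least 6 bases, by the distance of the window centre from the summit in bp, for 3401 autosomal intron peaks (blue) and 2025 autosomal promoter peaks (red), with exact 95% intervals shaded. Both curves peak at the summit, at 32.9% and 16.7%, and neighbouring windows, 50 bp apart, overlap.

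Autosomal intergenic summits had a run about as often, in 34.2% of 1458 peaks (31.8 to 36.7). Promoter summits, within 500 bp of a TSS, had one less often, in 16.7% of 2025 (15.1 to 18.4), and the intervals of introns and promoters do not overlap. The surroundings of promoter summits also held fewer runs. Windows centred 200 to 1000 bp away had a median of 1.75%, against 3.20% around intron summits. Exon summits stood between, at 28.1% of 384 (23.7 to 32.9). Intron summits on X had a run in 44.1% of 1061 (41.1 to 47.2), where 3.74% of the intron positions have one in reach. Among the autosomal arms the share was 34.0% on 2L (227 of 667), 35.1% on 2R (314 of 895), 32.7% on 3L (298 of 911) and 30.3% on 3R (279 of 922), and the 4 intervals overlap. Arm 4 had 1 such peak among 6 intron peaks, in zfh2, a gene for a zinc finger and homeodomain protein.

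Shorter runs were also more frequent at summits than in introns. A run of at least 4 bases lay in reach of 81.5% of autosomal intron summits and in 27.4% of 422070 tiles of the same length cut from the same introns. For at least 5 bases the shares were 56.7% and 8.34%. The ratio of the share at summits to that in tiles was thus higher at each further base.

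Inside the window, which the rule fixed, the runs gathered at the summit. The 1119 peaks held 1289 runs, and the centre of a run lay a median of 18.5 bp from the summit (quartiles 7.5 and 31.0). Within 25 bp lay 64.2% of the runs (827 of 1289, 61.5 to 66.8) and within 10 bp 32.9% (424 of 1289). The summit fell inside a run in 15.7% of the peaks (176 of 1119). Read along the guanine strand, 47.3% of the runs with a centre off the summit lay on its 3′ side (605 of 1279, 44.5 to 50.1), an interval that includes an even split.

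**Figure D2:**
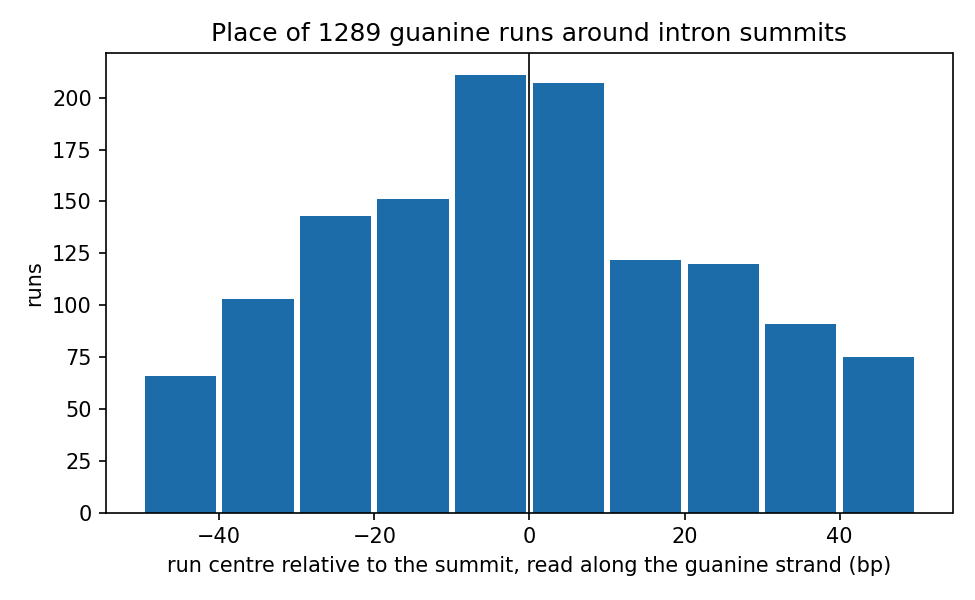
Number of G runs by the distance of the run centre from the summit in bp, read along the strand that carries the guanines, in 10 bp bins over the 1289 runs of 1119 peaks. The bins on both sides of the summit are the fullest, and the counts fall towards the edges of the window. The outermost bins can hold centres only up to 47.5 bp.

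Guanines were about as often on the plus as on the minus strand of the arm, and slightly less often on the sense than on the antisense strand of the gene. They were on the plus strand in 49.9% of the runs (643 of 1289). Where all host genes lay on 1 strand, guanines were on the sense strand of the gene in 46.8% of the runs (590 of 1262, 44.0 to 49.5). Runs in the same introns with no summit in reach gave 48.6% (4241 of 8735, 47.5 to 49.6). The intervals overlap, and neither includes an even split. For the share at peaks, runs of 7 or more bases gave 51.4% (47.2 to 55.5), on the other side of an even split.

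Turning the question round, most long runs in introns had no Crol peak. Of 10184 G runs that lay wholly in autosomal intron sequence more than 500 bp from a TSS, 1284 had a summit in reach, which is 12.6% (11.97 to 13.3). X introns gave 13.4% of 4254 runs (12.4 to 14.5). By arm the share was 12.02% on 2L, 14.8% on 2R, 13.7% on 3L and 10.4% on 3R.

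The share with a peak rose with the length of the run. It was 2.86% for runs of exactly 4 bases, 4.80% for 5 and 9.91% for 6 (688 of 6944). It was 12.6% for 7 bases, 13.3% for 8 and 22.3% for 9. Runs of 10 to 11 bases had a peak in 26.0% of cases (116 of 446, 22.0 to 30.3), and those of 12 or more in 27.7% (195 of 705, 24.4 to 31.1), so the longest classes did not differ beyond counting error. A longer run reaches more positions, which adds to its share. Each further base extends that reach by its own length only, beside a window of 50 bp to either side of the summit. The shares were not corrected for reach, and its exact part in the rise was not tested. Because runs of 6 are common, 47.8% of the 1119 peaks had a longest run of 6 bases (535) and 17.4% had a run of 12 or more (195).

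**Figure D3:**
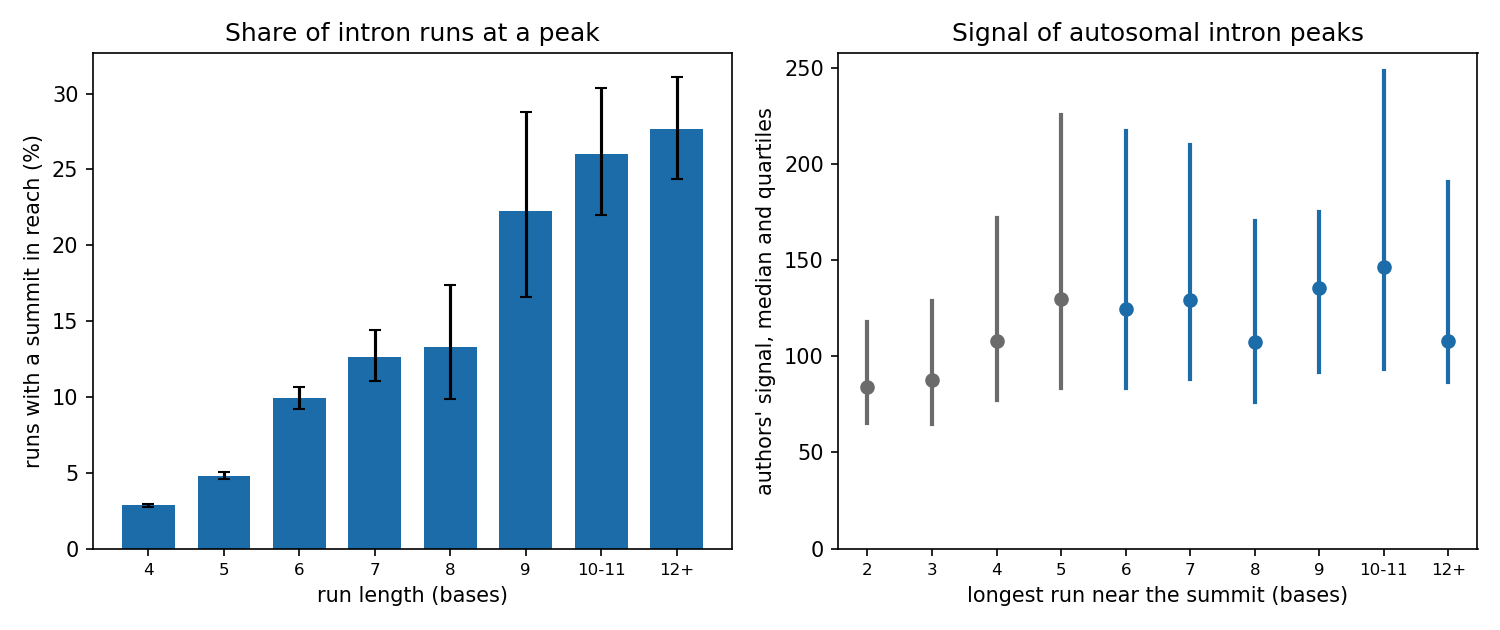
Left, percentage of G runs in autosomal introns that have a summit in reach, by run length in bases, with exact 95% intervals. Right, the authors' signal of autosomal intron peaks by the longest run near the summit, as medians with quartiles, with peaks outside the rule in grey. The share with a peak rises from 2.86% to 27.7%, while the median signal rises up to 5 bases, 130, and stays between 107 and 146 beyond.

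Runs with a second run close by had a peak more often. With another G run within 10 bp the share with a peak was 35.4% (190 of 537, 31.3 to 39.6), and with one 11 to 50 bp away it was 30.1% (166 of 551). With none within 50 bp it was 10.2% (928 of 9096, 9.59 to 10.8). Among runs with no such neighbour, length still went with the share: 7.31% for exactly 6 bases (452 of 6183), 11.2% for 7 to 9 (208 of 1863) and 25.5% for 10 or more (268 of 1050). A pair of neighbouring runs shares its summit, so these counts are not independent.

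**Figure D4:**
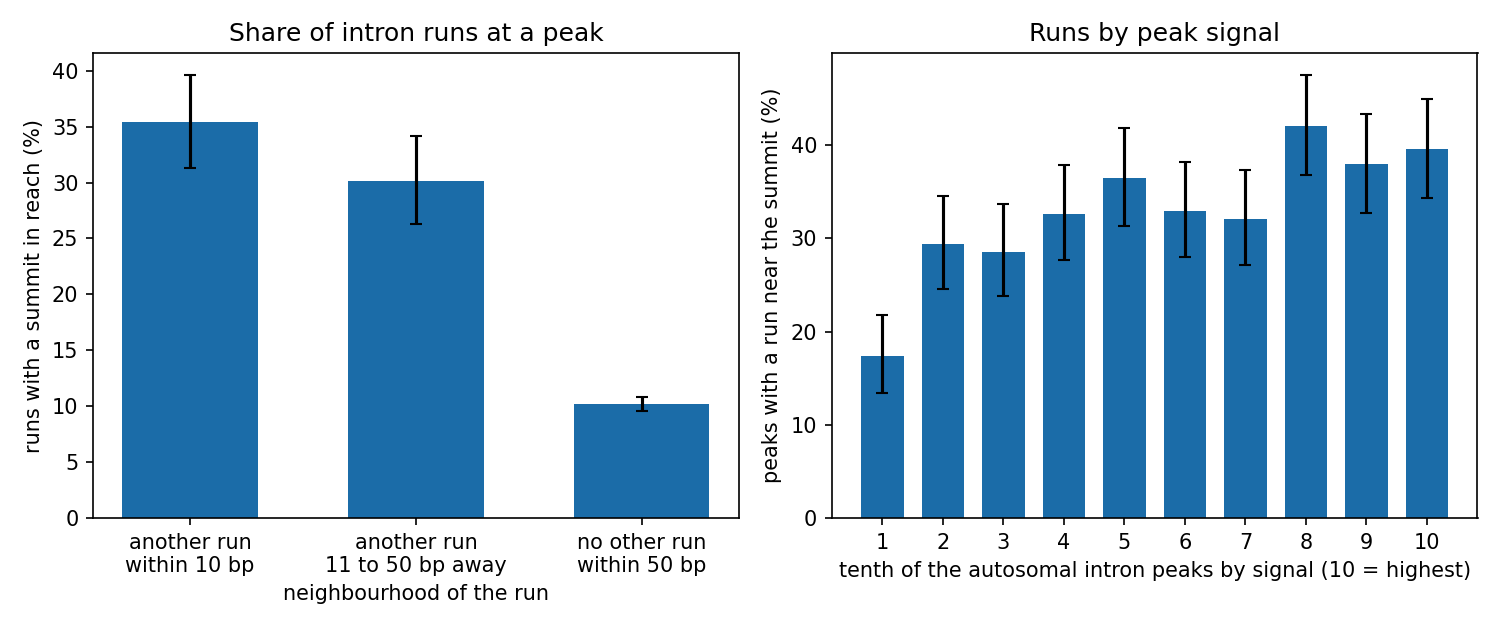
Left, percentage of G runs in autosomal introns with a summit in reach, by the distance to the next G run, with exact 95% intervals. Right, percentage of autosomal intron peaks with a G run near the summit, by decile of the authors' signal (1 the lowest, 10 the highest), with exact 95% intervals. A near neighbour goes with 35.4% against 10.2% without one, and the share of peaks with a run is lowest, 17.4%, in the lowest signal decile, where it is 30.6% without peaks whose joined signal lies far below the replicates'.

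Most of the 1119 peaks had 1 run (957), 154 had 2 and 8 had 3. In the 154 peaks with 2 runs, the guanines were on the same strand in 81.2% (125, 74.1 to 87.0), and the gap between the runs had a median of 9 bp (quartiles 4 and 23.8). A single base separated the runs in 27 of them. That base, read with the guanines, was A in 18, T in 9 and C in 0.

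Among 6-base words of G and C only, the unbroken run had the highest share with a peak. Each such word was looked up in the same introns, on both strands, and 36 words are distinct once reverse complements are joined. GGGGGG had a summit in reach at 17.9% of its 20567 places (17.4 to 18.4), where long runs count once for each overlapping place. GCGGGG followed with 6.68%, CGGGGG with 5.78% and GGGGGC with 5.71%, and the median over the words was 2.12%. Counted once per run, 12.6% of runs of at least 6 bases and 9.91% of runs of exactly 6 had a summit in reach. The 3 words that followed each differ from the run by 1 base and stood below it on either count.

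The letters beside the run differed between runs with and without a peak, on both sides of the run. Read with the guanines, the base just before the run was A in 52.5% of the 1284 runs with a peak (49.7 to 55.3) and in 37.7% of the 8900 without (36.7 to 38.7). The base before that was G in 52.2% (49.4 to 54.9) against 34.3% (33.3 to 35.3), and T in 9.89% against 22.1%. Guanine was more frequent beside runs with a peak at every place up to 15 bases away, except the adjoining bases, which cannot be G. It was at 46.2% against 30.8% at 6 bases before the run, and at 46.0% against 33.4% at 5 bases after it. At 15 bases after it the values were 38.6% and 27.6%. Directly after the run C was less frequent, 24.2% (21.9 to 26.7) against 30.9% (29.9 to 31.9), T more frequent, 36.4% (33.8 to 39.1) against 30.7% (29.7 to 31.6), and A was at 39.3% against 38.5%. Among runs of exactly 6 bases, G stood at 2 bases before the run in 52.5% of the 688 with a peak and in 32.7% of the 6256 without.

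Split by the 2 letters before the run, a split chosen after these letters were seen, the share with a peak also differed. Runs that followed GA had a peak in 21.2% of cases (335 of 1578, 19.2 to 23.3), and those after CA in 17.9% (109 of 610). Those after TT had one in 5.19% (66 of 1271, 4.04 to 6.56) and after AC in 5.06% (21 of 415). Among runs of exactly 6 bases, GA gave 16.8% (157 of 935), GC 16.7% (102 of 611) and TT 3.31% (30 of 905). The aru, bun and Pde11 sequences above show a run that follows GA.

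The windows around these summits were rich in G and C beyond the run. Their G+C content had a median of 55.4%, against 51.5% at the other intron peaks and 40.6% in the tiles. With the runs taken out it was 50.5%, close to that of the other intron peaks. A pattern of 4 stretches of at least 3 guanines with loops of 1 to 7 bases, the textbook form of sequences that can fold into a G-quadruplex, was present in 27.6% of the windows (309 of 1119, 25.01 to 30.3). It was present in 8.90% of the other intron peaks (203 of 2282) and in 0.656% of the tiles. The run itself makes the pattern easier to meet, and no folding was measured.

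Other known binding words were searched on both strands in the same windows. GAGAG, the word of the GAGA factor Trl, was in 22.4% of the windows with a run (251 of 1119, 20.02 to 24.99), in 26.7% of the other intron peaks (24.9 to 28.6) and in 11.3% of tiles. GGGCGG, the GC box of Sp and KLF proteins, was in 19.9% of windows with a run, 15.8% of other peaks and 2.98% of tiles. The CACCC box was in 45.8%, 35.5% and 10.8%. Both words can overlap a run. Outside the run they were in 14.6% (12.6 to 16.8) and 30.3% of the windows with a run. Those 2 shares leave out every match that touches a run, and nothing was left out in the other peaks or tiles. Words of A and T went the other way: AAAAAA was in 10.01% of the windows with a run, 12.6% of the other peaks and 20.5% of tiles, and the homeodomain word TAATTA in 2.50%, 3.07% and 7.69%. ATCGATA, the word of DREF and BEAF-32, was in 1 of the 1119 windows and in 1.14% of tiles. CAGGTA, the word of the early activator Zelda, was in 1.61%, 2.41% and 2.15%. A match describes the letters of the window and does not show that the factor binds.

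The peaks with a run were slightly stronger than the others. Signal, the authors' deposited peak height with no unit stated, had a median of 125 (quartiles 85.8 and 210) in the 1119 peaks and 106 (76.0 and 173) in the 2282 others, a ratio of 1.18. A linear fit of log2 signal with the arm as a term gave a difference of 0.37 (95% interval 0.29 to 0.45, n = 3401). With G+C content outside the runs and TSS distance added, it was 0.42 (0.34 to 0.50). The difference was smaller in each replicate's own ranked list, 0.13 (0.06 to 0.20) in replicate 1 and 0.17 (0.11 to 0.24) in replicate 2. The fits treat peaks as separate points, and no p-value is attached.

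A small set of peaks with low joined values bears on these fits. The joined signal was close to the sum of both replicates' signals, with a median ratio to the sum of 0.998 for peaks with a run and 0.992 for the others. It was under 0.5 times the sum for 10 of 1113 peaks with a run (0.898%) and for 164 of 2259 others (7.26%). Without those, a restriction chosen after seeing the data, the log2 difference was 0.15 (0.08 to 0.22, n = 3198) and the ratio of medians 1.12. Such peaks have higher values in the replicates: the peak in aos and the overlapping CG33158 had 2.14, with 56.6 in replicate 1 and 51.5 in replicate 2. A peak in Rbp6 had 5.68, with 60.6 in both replicates.

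Among the peaks with a G run, signal did not rise steadily with the length of the run. The median was 83.9 for intron peaks whose longest run was 2 bases, 87.9 for 3, 108 for 4 and 130 for 5, all outside the rule. It was 125 for 6 bases, 129 for 7, 107 for 8, 136 for 9, 146 for 10 to 11 and 108 for 12 or more, with quartiles that overlap throughout. Peaks with 1, 2 and 3 runs had medians of 123, 134 and 150, the last over 8 peaks. Peaks whose nearest run centre lay within 10 bp of the summit had a median of 134, against 115 from there to 25 bp and 120 farther out. The share of peaks with a run was 17.4% in the lowest signal decile (13.5 to 21.8), between 28.5 and 36.5% in deciles 2 to 7, 42.1% in the 8th and 39.6% in the highest (34.4 to 45.0). The lowest decile holds the joined signals under 20, of 8 peaks with a run and 117 others. Without the low joined values above, with deciles drawn again, the share was 30.6% in the lowest decile (25.6 to 36.0), 25.9% in the next and 40.3% in the highest (34.9 to 45.9).

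The difference in signal was not even over arms or distances. The ratio of medians was 1.24 on 2L, 1.17 on 2R, 1.01 on 3L and 1.24 on 3R. By TSS distance it was 1.37 up to 1000 bp, 1.21 up to 3000 bp, 1.20 up to 10000 bp and 1.08 beyond. Just inside the rule's TSS limit, at 501 to 600 bp, 18 peaks had a median signal of 141, and just outside, at 401 to 500 bp in an intron, 31 had 158. Just outside the run limit, peaks with a longest run of 5 bases had 130 against 125 for 6. Just inside the window limit, with the far edge of the run at 41 to 50 bp, 163 peaks had 112, and at 51 to 60 bp 66 had 110.

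Most of the peaks with a run were also found in the replicates' own lists. Both thresholded lists overlapped 61.0% of the 1119 peaks by at least 1 bp (683, 58.1 to 63.9), against 55.0% of the other intron peaks (52.9 to 57.1) and 57% of all autosomal intron peaks. The list of replicate 1 overlapped 76.9% and that of replicate 2 68.5%, from lists of 7813 and 6147 peaks, and 177 peaks were in the first only and 84 in the second only. In neither list were 175 of the 1119 (15.6%), although 1113 were in both of the longer ranked lists. The replicate summits lay a median of 5 bp and 11 bp from the joined summit in replicates 1 and 2, against 7 bp and 19 bp for the other peaks. Signals of the replicates were within a factor of 2 for 96.3% of the 1113 peaks, against 94.0% of 2259 others. Across these peaks Pearson's r of the log2 signals was 0.913 and Spearman's rank correlation 0.846, as a description of points from the same 2 libraries. For the others they were 0.864 and 0.776. All these peaks had passed a threshold on how well ranks repeat between the same replicates, so such agreement is partly set by the choice of peaks.

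The peak that moved most in rank between replicates was a weak one, with a joined signal of 53.9. This peak in dlp, which codes for a glypican, had the largest drop, from the 79.2 percentile of the ranked list in replicate 1 to 44.3 in replicate 2. The lowest percentile of any of the 25 strongest peaks in either replicate was 99.6.

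The 25 strongest peaks had signals from 828 to 2678. The strongest, in sty, had a signal of 2678, with 1385 in replicate 1 and 1279 in replicate 2, and lay 565 bp from the TSS of sty. The peak in psq, a BTB-domain gene, had 2204, with 1152 and 1061 in replicates 1 and 2. In both, the replicates differ by far less than the distance to the median peak. The peak in sbb, which codes for a nuclear regulator, had 1740, with 996 and 792, and lay 22239 bp from the nearest TSS. The centre of its run of 12 bases lay at -46.5 bp from the summit, at the edge of the window. That of the run in psq lay at -47.5 bp.

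Among the rest of the 25, chosen here for their known roles, several lay in genes of signalling and transcription. The peak in bun, a TSC22-family gene, had 1194, with 734 in replicate 1 and 453 in replicate 2. Dad, the inhibitory Smad of Dpp signalling, had 1003, with 513 and 479. Both were higher in replicate 1, as were all 25, and each replicate's list has its own scale. A pair of separate peaks in vri, a PAR-bZIP gene of the clock, had 958 and 876. Mef2, a muscle transcription factor, had 894 with a run of 14 bases in the window. Trl, which codes for the GAGA factor and overlaps CG42507 here, had 828.

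**Figure D5:**
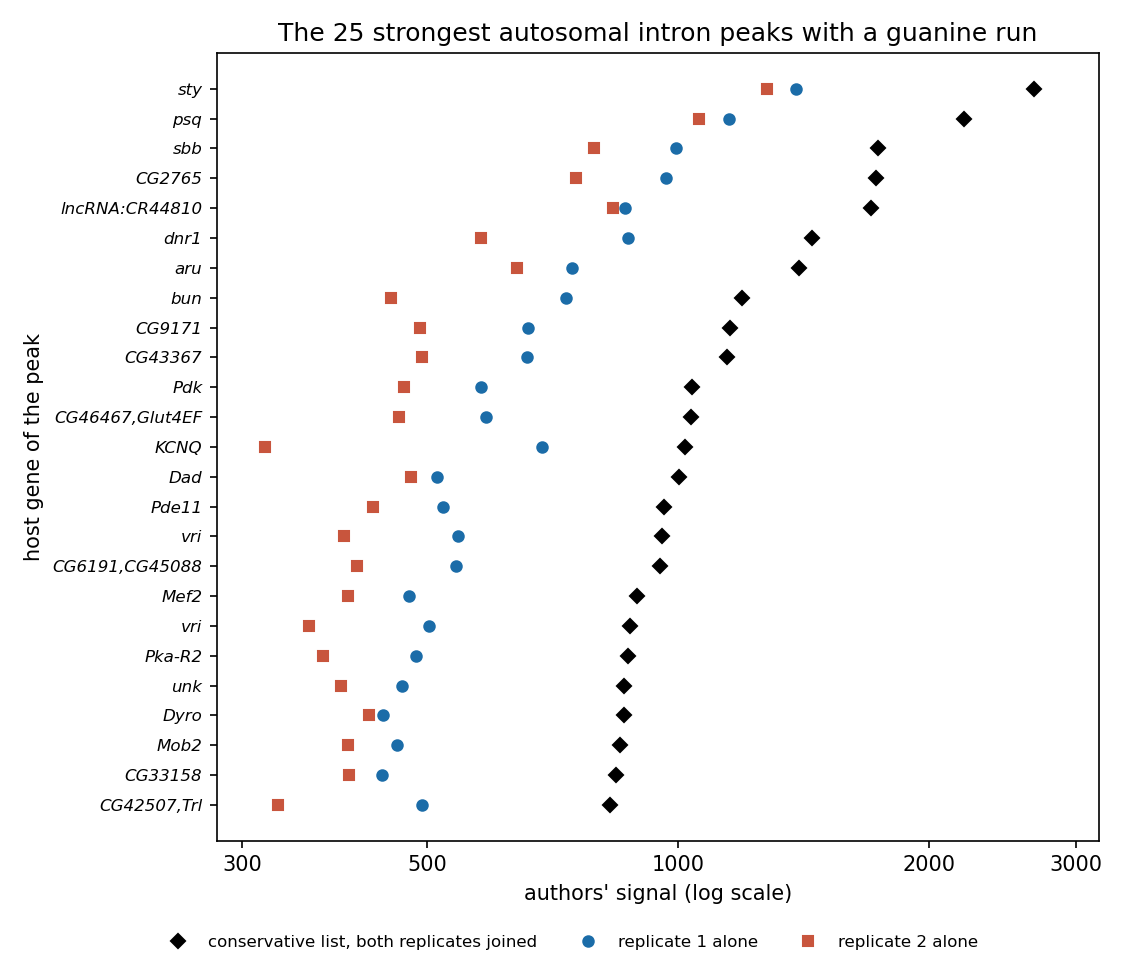
The authors' signal on a log scale for the 25 strongest autosomal intron peaks with a G run, by host gene, in the conservative list (black), in replicate 1 (blue) and in replicate 2 (red). Every peak is higher in replicate 1 than in replicate 2, and the joined value lies above both.

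Metabolic and channel genes were hosts too. The peak in Pdk, the pyruvate dehydrogenase kinase gene, had 1041, with 580 and 470 in replicates 1 and 2. The peak in KCNQ, a potassium channel gene, had 1021, with 686 and 320, the widest gap of the 25. Pde11, a phosphodiesterase gene, had 963, with 523 and 431. The regulatory subunit gene Pka-R2 of protein kinase A had 871 at a site with 3 runs. Glut4EF, which shares its introns with CG46467, had 1036. For CG2765, CG9171, CG43367, CG6191 and Dyro, with 1730, 1155, 1146, 953 and 861, no role is given here.

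The peaks lay in long genes, as did the other intron peaks. The longest host gene of a peak had a median length of 37801 bp, against 34650 bp for the others. The distance of the peaks with a run to the nearest TSS had a median of 3858 bp, against 3183 bp for the other intron peaks. In 69.2% the nearest TSS belonged to a host gene. They lay in the first intron of at least 1 transcript of a host gene in 62.4% (698 of 1119, 59.5 to 65.2). For the others this was 67.5% (65.6 to 69.4). The share of intron sequence that is first intron was not computed. Another listed summit lay within 1000 bp of 34.9% of them (32.1 to 37.8), against 39.5% (37.5 to 41.5).

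The host genes numbered 627, which is 7.9% of the 7939 autosomal genes with any intron sequence beyond 500 bp from a TSS. Of these, 614 code for proteins, 370 hosted 1 such peak, 122 hosted 2 and 135 hosted 3 or more. The share of genes that hosted one followed the amount of such intron sequence: 0.140% below 1000 bp, 7.45% up to 5000 bp, 25.7% up to 20000 bp, 41.3% up to 50000 bp and 96 of 160 genes beyond. Over all autosomal introns there were 2.63 such peaks per 100 kb. Counts per gene must therefore be read beside intron length.

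Glut4EF and the overlapping CG46467 held the same 14 peaks in introns of 99707 bp, 14.0 per 100 kb, with signals from 23.9 to 1036. sbb held 12, 21.4 per 100 kb, beside 30 intron peaks with no run. ftz-f1, a nuclear receptor gene of the ecdysone response, held 8, or 19.7 per 100 kb, with a median signal of 196. Glut4EF also held 11 intron peaks with no run, and ftz-f1 held 9. In these 3 places the density was several times the mean of all introns, but the genes were picked for their many peaks.

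Snoo, a corepressor gene, held 10 (11.99 per 100 kb), Ptp61F, a phosphatase gene of JAK-STAT signalling, held 10 (10.6) and Rbp6, an RNA-binding protein gene, held 10 (6.17). Their strongest peaks differed, with 386 in Snoo, 222 in Ptp61F and 125 in Rbp6, all below the strongest in sbb and ftz-f1. mtgo held 8, and psq and nmo 7 each. hth, fz2, luna, px and heca also held 7, and are named because they tie.

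Gene lists of known pathways are described by how many of their autosomal members with such introns hosted a peak, beside the 7.9% of all such genes. The lists were drawn up with earlier results of these data known, and many of their genes have long introns, so the share is no measure of the pathway. Of the ecdysone response list, 12 of 16 genes were hosts, with a median of 36008.5 bp of intron. They included Hr3, a nuclear receptor gene with 6 peaks and a strongest signal of 479, Eip63E, a cyclin-dependent kinase gene, with 728, and Eip78C, a nuclear receptor gene, with 518. Of BTB and zinc finger regulators 17 of 24 were hosts, holding 62 peaks over a median intron length of 17596.5 bp, with rib, a BTB gene, at 603.

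Signalling lists stood lower, with median intron lengths from 3069 to 12723 bp. Of EGFR and FGF signalling 10 of 22 were hosts, among them sty and the inhibitor gene aos, with 4 peaks and a strongest of 510, and the repressor gene aop, with 5 and 628. Of Wingless and Hedgehog signalling 10 of 22 were, among them the receptor genes fz2, 7 peaks and 378, and fz, 5 and 349, and the feedback inhibitor gene nkd, 3 and 734. Of Dpp signalling 6 of 17 were, with dpp, the ligand gene, at 440 and shn, a zinc finger gene, at 294. Of Notch signalling 4 of 15 were, with mam, a coactivator gene, at 6 peaks and 371. Of JAK-STAT, Hippo and JNK 9 of 16 were, with msn, a kinase gene, at 629 and Socs36E, a pathway inhibitor gene, at 414.

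Cell type and housekeeping lists spread widely. Neural fate and temporal factors had 10 of 17 hosts over a median of 22378 bp of intron, with zfh2 at 768, nub at 412 and pros at 325. Polycomb and trithorax groups had 11 of 28, with a median of 1095.5 bp of intron over the whole list. The hosts with the strongest peaks had more intron, 49816 bp in psq, 6046 bp in Trl, 8666 bp in Psc and 12790 bp in kis. Psc, a Polycomb gene, stood at 682 and kis, a chromatin remodeller gene, at 550. Axon guidance had 11 of 32 and ion channels and synapse 9 of 27, over medians of 32781.5 and 17391 bp of intron. Of all such genes, 41.3% were hosts at 20000 to 50000 bp of intron and 25.7% at 5000 to 20000 bp. Circadian genes had 3 of 8 and gut, fat body and blood genes 5 of 16, with bowl, an odd-skipped family gene, at 721. The median intron lengths of these lists were 6134 and 6631.5 bp. Segmentation and Hox genes had 4 of 19 and epidermis and trachea 3 of 15, over medians of 7854 and 6640 bp. Muscle and mesoderm genes had 3 of 22, germline genes 2 of 15 and cell cycle genes 0 of 14. Their median intron lengths were 4884.5, 1259 and 778.5 bp.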

How the data were processed

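Chromatin immunoprecipitation followed by sequencing (ChIP-seq) of Crol-eGFP was made from 2 embryo replicates, with DNA sheared by sonication to a size range of 200 to 800, per the labels. The authors deposited peak lists on dm6, with the signal of each peak and a score, which is a rescaled irreproducible discovery rate (IDR), a measure of how well ranks repeat between replicates, per the file notes. Peak caller, aligner and signal scaling were not given in the sources used here. Since the conservative list joins both replicates and has no value per sample, replicate values came from each replicate's own lists, as the overlapping peak with the nearest summit. Classes of peaks were compared only within a list. Where signals of both replicates are set side by side, each is on its own list's scale. The ranked lists of joined replicates were not used. Read depth is unknown.

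Genes and exons came from Ensembl release 115 without transposable elements (18164 genes, 13945 protein-coding), and bases from the RefSeq copy of the assembly. All 9211 peaks lay on the 6 main arms. Introns were positions inside a gene and in no exon, and a nested gene gives a peak several hosts. The genes named are hosts of the 25 strongest peaks, the 10 with most peaks, the strongest of each arm, the 5 with the longest runs, the 5 lowest signals, the 5 largest rank shifts each way, and up to 4 hosts per gene list, of which the text gives a part. Peaks with a run were described, not tested, because the members, lists and motifs were chosen with earlier results of these data known. Of 501 listed gene names, 10 had no match. Of the 19 gene lists, 1 is not reported here. Intervals are exact Clopper-Pearson, and the fit used ordinary least squares with heteroscedasticity-consistent errors.

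Python 3.11.15, numpy 2.4.6, pandas 2.3.3, scipy 1.17.1, statsmodels 0.14.6 and matplotlib 3.10.9 were used. The run and place calls were tested on simulated data. Alternatives covered the list, score, signal, replicate, annotation, TSS distance, run length, window and overlap.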

Additional observations from a re-analysis of the deposited data

How the results depend on the processing

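No paired analysis was possible because the 2 replicates form 1 group. The ratio of median signals stayed above 1 under each alternative run, and the sense-strand share crossed an even split with runs of at least 7 bases. The share of autosomal intron summits with a G run, 32.9%, was 37.0% among peaks at or above the median signal, 56.7% and 17.0% with runs of at least 5 and 7 bases, and 21.2% and 40.2% with windows of 25 and 100 bp. The ratio of median signals, 1.18, was 1.08 among peaks at or above the median signal, 1.29 with runs of at least 5 bases, and 1.12 without low joined values. The share of long runs with a peak, 12.6%, was 10.6% with the highest deposited score only, 7.01% at or above the median signal, 6.78% and 18.2% with runs of at least 5 and 7, and 7.80% and 16.2% with windows of 25 and 100 bp. With either replicate's own list alone it was 9.08 to 10.03%. The share of runs within 25 bp of the summit, 64.2%, was 65.4% at or above the median signal, 65.8% with runs of at least 7, 50.1% with a 100 bp window and 64.0 to 65.4% with 1 replicate alone. With a 25 bp window it is fixed by construction. The share found in both replicates, 61.0%, was 57.6% when 0.5 of the peak had to be covered and 99.5% in the long ranked lists. The sense-strand share, 46.8%, was 47.6% in the optimal list, 47.1% with the highest score, 45.9% at or above the median signal, 46.4% with protein-coding genes only, 46.2% beyond 250 bp of a TSS, 45.6% and 51.4% with runs of at least 5 and 7, 48.2% and 47.4% with windows of 25 and 100 bp, and 45.9 to 46.3% with 1 replicate alone. The alternatives with other run lengths and windows change the rule itself, and other causes were not tested. Read counts are unknown, so the depth behind a missing peak in a replicate list is unknown, and 2 replicates give no spread beyond their difference. Embryos were pooled, and the control was not analysed here.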
